A study of Mus musculus with 6 samples.

Results

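The small heat shock proteins Hspb1, Hspb2, Hspb3, Hspb6, Hspb7, Hspb8 and Cryab, and the mitochondrial chaperonin pair Hspd1 and Hspe1, were followed in mouse heart after ischaemia and reperfusion with or without dexmedetomidine given beforehand. They are 9 of the 37620 genes in the count table. They were chosen by name as chaperones abundant in heart, and all 9 were found by gene symbol and passed the filter on low counts. By protein family 7 of them are small heat shock proteins and 2, Hspd1 and Hspe1, are chaperonins, so the group is not a single family. Abundance in heart held for 8 of the 9 and not for Hspb3, as the levels show.

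All 6 libraries came from tissue of the cardiac apex of wild-type C57/BL6J mice whose hearts underwent 30 min of ischaemia and then 120 min of reperfusion. Dexmedetomidine is a sedative that activates alpha-2 adrenergic receptors, and yohimbine blocks those receptors. In the 3 samples of the dexmedetomidine group (DIR), mice had received the vehicle of yohimbine, 30 min later 10 µg/kg dexmedetomidine, and surgery 20 min after that. In the 3 samples of the vehicle group (IR), mice had been given the vehicles of both drugs before surgery, at times not given in the labels. Infusions went into the tail vein within 10 min, so both groups share the yohimbine vehicle, the infusion, the ischaemia and the reperfusion. There was no sham-operated or uninjured group among the libraries used here, so levels in an unchallenged heart are not known. Age, sex and whether replicates are separate animals are not stated, and the p-values measure only the spread between these samples. Polyadenylated RNA was sequenced.

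Small heat shock proteins are ATP-independent chaperones built around an alpha-crystallin domain. They form oligomers that hold unfolding proteins until chaperones of the HSP70 family refold them or they are degraded. In cardiac muscle several of them bind the sarcomere, desmin filaments and the actin cytoskeleton during ischaemic stress. Part of the family is induced by heat shock factor HSF1, which binds inverted repeats of a short GAA element upstream of its targets, while other members are expressed constitutively in muscle. Hspd1 and Hspe1 form the barrel and the lid of the chaperonin that folds imported proteins in the mitochondrial matrix.

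The 300-base windows around annotated gene starts, 250 bases before to 50 after, were read for the letters of the HSF1 element, since HSF1 is the best known regulator of the inducible members. RefSeq windows (GRCm38.p6) were found for 7 of the 9 genes, and Hspb2 and Cryab had no entry. The letters GAANNTTC, whose reverse complement is the same, lay in 6 of the 9 windows of these genes, 1 window each of Hspb1, Hspb3, Hspb6, Hspb8, Hspd1 and Hspe1, against 7.86% of all 32851 windows. Hspb6 and Hspd1 have 2 windows each. The letters TTCNNGAA, also their own reverse complement, lay in 2 of the 9 windows, those of Hspd1 and Hspe1, against 8.52% of all windows. Both patterns joined, sharing 3 letters so that 1 runs into the other on either strand, lay in the same 2 windows and in 0.603% of all windows. These matches describe letters in a window, not bound sites, and the windows of Hspd1 and Hspe1 cover mostly the same DNA. Hspb7 had no match of these letters in its window. The stretch between Hspd1 and Hspe1 and the stretch upstream of Hspb1 are shown because Hspb1 had the widest spread of the 9 genes and the chaperonin genes share their upstream DNA, with the matching letters in capitals. Both are on the plus strand, at chr1:55088018-55088107 and chr5:135887769-135887858.
Hspe1: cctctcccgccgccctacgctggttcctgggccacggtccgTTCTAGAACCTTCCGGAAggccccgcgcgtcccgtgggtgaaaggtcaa
Hspb1: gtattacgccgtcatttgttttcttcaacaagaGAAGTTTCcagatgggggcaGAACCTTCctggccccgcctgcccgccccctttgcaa
In the Hspe1 stretch the 2 overlapping joined matches begin at -89 and -84, counted from the start with the base before it as -1. In the Hspb1 stretch the 2 separate short matches begin at -117 and -97.

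Gene counts per library ran from 50274670 to 56615882 in the vehicle group and from 42691399 to 48636790 in the dexmedetomidine group. The 9 genes together took 0.588% to 0.836% of gene counts in vehicle libraries and 0.440% to 0.593% in dexmedetomidine libraries. Transcripts of the mitochondrial genome took 22.01% to 25.2% and 27.1% to 38.2% of gene counts in the same order. As a share of nuclear gene counts alone, the 9 genes took 0.766% to 1.07% and 0.712% to 0.812%, and these ranges overlap. The library vehicle replicate 2 stood apart, at -69.7 on the first principal component (47.6% of the variance), where the other vehicle libraries were at -27.0 and 4.05 and the dexmedetomidine libraries at 18.3 to 46.4. Across all tested genes the fold change also moved with GC content, from a median log2 fold change of 0.47 in the fifth of genes lowest in GC to -0.30 in the fifth highest in GC. The log2 fold changes of the 9 genes are therefore also given without that library and after a GC and length correction.

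Levels between genes were compared as CPM, the count scaled to a common library total, per kilobase of the deposited gene length. On this scale Cryab, alpha-B-crystallin, stood first with a mean over the 6 libraries of 1280 (958 to 1922), which ranked it 18th among tested nuclear genes. Hspb7, a small heat shock protein largely restricted to heart and skeletal muscle, followed at 764 (598 to 981), rank 34. Hspb1, known as HSP25 in mouse, was at 628 (392 to 1325), rank 45. These 3 genes were thus among the most abundant nuclear transcripts of the tissue.

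Hspb6, a small heat shock protein phosphorylated by cyclic nucleotide-dependent kinases, averaged 375 CPM per kilobase (291 to 462). Hspb8, the partner of the co-chaperone Bag3, averaged 208 (175 to 287), and Hspd1 averaged 120 (103 to 133). Hspb2, which was first described as a binder of myotonic dystrophy protein kinase, averaged 52.9 (38.7 to 66.2) and Hspe1 averaged 43.9 (35.02 to 64.2). Hspb3, known to assemble with Hspb2, was far below the rest at 4.93 (3.90 to 6.35), near the 60.0th percentile of tested nuclear genes where Hspe1 was at the 93.8th. The order within a library was the same in all 6 libraries except that Hspb1 exceeded Hspb7 in vehicle replicate 2. The ranges over libraries overlapped for Cryab and Hspb7, Hspb7 and Hspb1, Hspb1 and Hspb6, and Hspb2 and Hspe1. Of these pairs only Hspb7 and Hspb1 changed order within a library, and Hspb2 and Hspe1 were nearly level in dexmedetomidine replicate 2. The plot of levels per length shows this order.

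**Figure D1:**
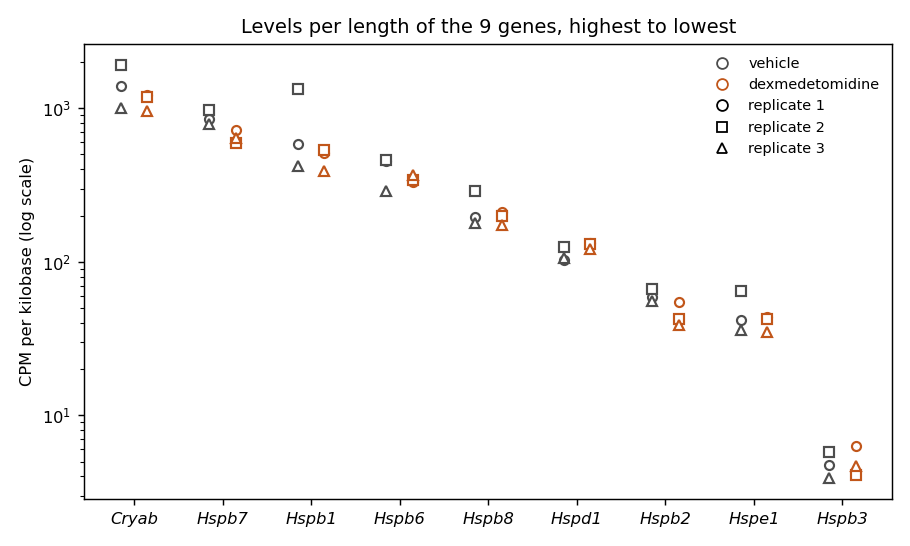
Level of each gene in CPM per kilobase of deposited length (log axis), genes ordered by their mean, 1 point per library with colour for the group and shape for the replicate. Means run from 1280 for Cryab to 4.93 for Hspb3, and the square of vehicle replicate 2 for Hspb1 lies above that for Hspb7.

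Among the family members that the study did not single out, Cryaa and Odf1 had 0 counts in every library. Hspb9, a testis-expressed member, had 0 to 14 counts per library, with a mean of 0.189 CPM ± 0.062 (SD, n = 3) in vehicle and 0.138 ± 0.122 (SD, n = 3) in dexmedetomidine libraries. Its log2 fold change was -0.43 (SE 0.97, edgeR adjusted p = 0.838).

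The question of the design is whether dexmedetomidine before the injury altered transcript levels after it. None of the 9 genes passed an adjusted p of 0.05 in edgeR's quasi-likelihood test across 14738 genes, and neither did any other gene (0.0% called). At an unadjusted p of 0.05 the same test had 3172 genes (21.5%), while DESeq2 called 1272 genes (9.56%) and limma-voom 2107 (14.3%) after adjustment. Of the 9 genes 7 had a log2 fold change (dexmedetomidine minus vehicle) below 0 and 2, Hspd1 and Hspb3, above 0. The median log2 fold change over all tested genes was 0.003, and 49.7% of them were below 0. In 2 of the 9 genes, Hspb7 and Hspb2, every dexmedetomidine library was below every vehicle library, where 12.0% of all tested genes had that pattern and 15.6% its reverse. The same 2 genes had an unadjusted p under 0.05, both lower, against 9.03% of all tested genes lower and 12.5% higher at that threshold. In bulk tissue, fewer cells of a type and less RNA per cell cannot be told apart.

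Hspb7 (ENSMUSG00000006221) binds filamin C and is required for the assembly of cardiac thin filaments. In the vehicle group its level was 2371 CPM in replicate 1, 2715 in replicate 2 and 2190 in replicate 3, and in the dexmedetomidine group 2001, 1656 and 1763 CPM, in the same order as for every gene here. The groups did not overlap, with vehicle replicate 2 highest and dexmedetomidine replicate 2 lowest. Means were 2426 ± 267 and 1807 ± 177 CPM (SD, n = 3 each), a ratio of 1.34 of vehicle to dexmedetomidine. Its log2 fold change was -0.42 (SE 0.13, 95% interval -0.72 to -0.13, edgeR adjusted p = 0.123). Hspb7 passed in DESeq2 (adjusted p = 0.0421, with 2.95% of genes called lower), in limma-voom (adjusted p = 0.0213, 5.31% called lower) and in edgeR without vehicle replicate 3 (adjusted p = 0.0494, 2.19% called lower). Without vehicle replicate 2 its adjusted p was 0.140 in DESeq2 and 0.154 in limma-voom, and its edgeR log2 fold change was -0.34. After correction for GC content and length, the log2 fold change of Hspb7 was -0.15 (edgeR adjusted p = 0.622). Its longest annotated transcript has 57.5% GC, which places it in the fifth of genes with a median of -0.30.

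Hspb2 (ENSMUSG00000038086), a muscle member of the family, was lower in each dexmedetomidine library by a narrower margin. It measured 49.5, 55.6 and 46.9 CPM in the vehicle replicates, and 46.2, 35.8 and 32.5 CPM in the dexmedetomidine replicates. The lowest vehicle library and the highest dexmedetomidine library were nearly equal, and dexmedetomidine replicates 2 and 3 made most of the difference. Hspb2 had a log2 fold change of -0.41 (SE 0.15, 95% interval -0.75 to -0.07, edgeR adjusted p = 0.167), with means of 50.7 ± 4.48 and 38.2 ± 7.14 CPM (SD, n = 3 each). Limma-voom called it (adjusted p = 0.0372) and DESeq2 did not (adjusted p = 0.114). Without vehicle replicate 2 the limma-voom adjusted p was 0.203 and the edgeR log2 fold change -0.34. After GC and length correction the log2 fold change was 0.03, at a GC content of 59.6%. Dexmedetomidine replicates 2 and 3 are also the libraries with the highest mitochondrial transcript shares, 36.9% and 38.2% against 27.1% in dexmedetomidine replicate 1, and the part of that share in the result was not tested. With mitochondrially encoded genes removed before scaling, the log2 fold change was -0.43 for Hspb2 (edgeR adjusted p = 0.145) and -0.44 for Hspb7 (edgeR adjusted p = 0.116).

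**Figure D2:**
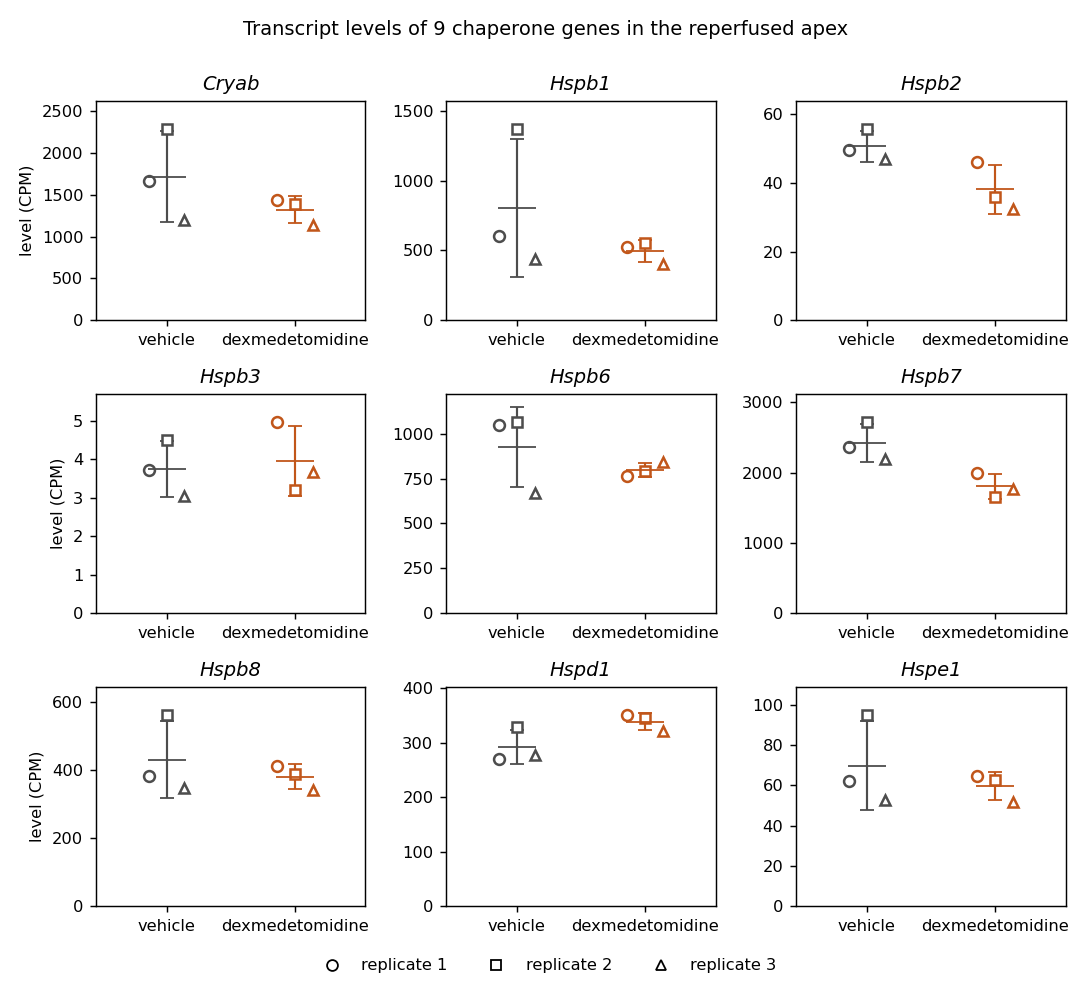
Level in CPM (linear axes from 0) of the 9 genes in each library, by group, with shapes for replicates, horizontal bars for group means and error bars for the SD (n = 3). Hspb7 and Hspb2 are the genes with no overlap between groups, and the square of vehicle replicate 2 is the top vehicle point in every panel.

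Hspb1 (ENSMUSG00000004951), an actin-regulating chaperone phosphorylated downstream of p38, had the widest spread of the 9 genes. It measured 605, 1366 and 435 CPM in the vehicle replicates and 526, 550 and 404 CPM in the dexmedetomidine replicates. Vehicle replicate 2 was 2.63 times the mean of the other vehicle libraries, and vehicle replicates 1 and 3 bracketed the dexmedetomidine values apart from the lowest of them. The coefficient of variation was 61.8% in vehicle and 15.9% in dexmedetomidine libraries. The log2 fold change was -0.70 (SE 0.38, 95% interval -1.57 to 0.17, edgeR adjusted p = 0.323), from means of 802 ± 496 and 493 ± 78.6 CPM (SD, n = 3 each). Without vehicle replicate 2 it was -0.08, without vehicle replicate 3 it was -0.998, and after GC and length correction it was -0.15.

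Cryab (ENSMUSG00000032060), which chaperones desmin and titin, was also highest in vehicle replicate 2 and lowest in dexmedetomidine replicate 3. It measured 1657, 2278 and 1196 CPM in the vehicle replicates and 1437, 1394 and 1135 CPM in the dexmedetomidine replicates. The groups overlapped, with vehicle replicate 2 at 1.60 times the mean of the other vehicle libraries. Cryab had a log2 fold change of -0.37 (SE 0.22, 95% interval -0.87 to 0.12, edgeR adjusted p = 0.359), -0.11 without vehicle replicate 2 and -0.12 after GC and length correction.

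Hspb8 (ENSMUSG00000041548), which delivers misfolded proteins with Bag3 to autophagy, measured 382, 560 and 349 CPM in the vehicle replicates and 412, 387 and 341 CPM in the dexmedetomidine replicates. Apart from vehicle replicate 2, which was 1.53 times the mean of the other vehicle libraries, the groups interleaved. For Hspb8 the log2 fold change was -0.18 (SE 0.18, 95% interval -0.58 to 0.22, edgeR adjusted p = 0.604), 0.06 without vehicle replicate 2 and -0.031 after GC and length correction.

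Hspb6 (ENSMUSG00000036854) measured 1050, 1062 and 669 CPM in the vehicle replicates and 762, 790 and 839 CPM in the dexmedetomidine replicates. Here vehicle replicate 3 was the odd library, below all dexmedetomidine libraries, while the other vehicle libraries were above them. The log2 fold change was -0.22 (SE 0.17, 95% interval -0.61 to 0.17, edgeR adjusted p = 0.507). It was -0.41 without vehicle replicate 3 (edgeR adjusted p = 0.0566), -0.11 without vehicle replicate 2 and -0.0097 after GC and length correction.

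Hspb3 (ENSMUSG00000051456) rested on 125 to 255 counts per library. It measured 3.72, 4.49 and 3.04 CPM in the vehicle replicates and 4.96, 3.21 and 3.67 CPM in the dexmedetomidine replicates. The groups interleaved, and the interval of the difference (log2 fold change 0.08, SE 0.26, -0.51 to 0.66, edgeR adjusted p = 0.898) covers changes of either sign. Its direction turned to -0.05 without vehicle replicate 3 and to -0.13 without dexmedetomidine replicate 1. It was 0.22 without vehicle replicate 2 and 0.26 after GC and length correction.

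**Figure D3:**
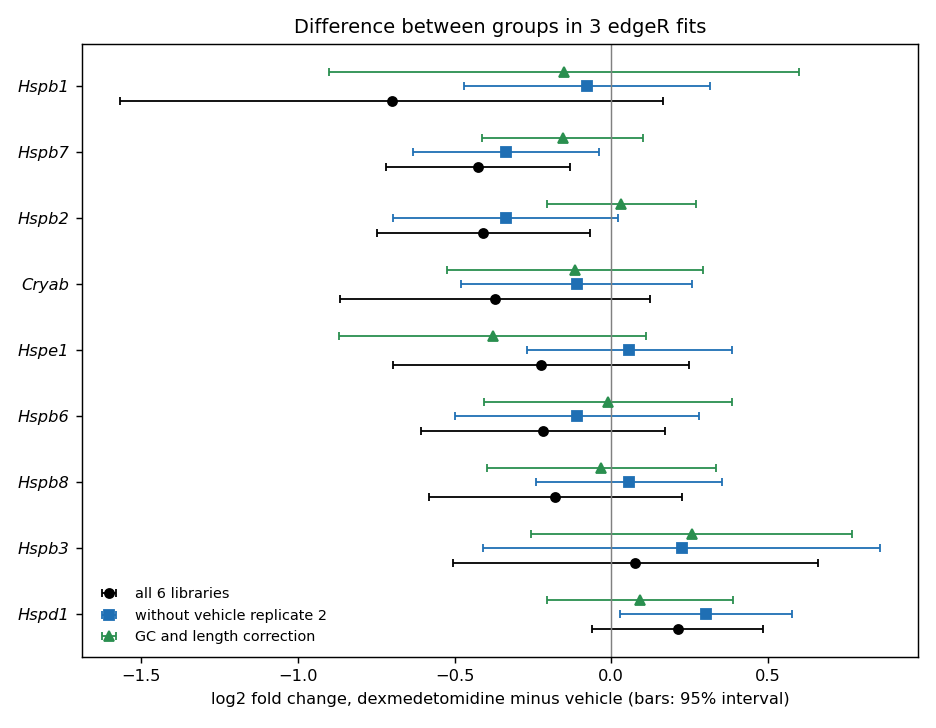
Log2 fold change (dexmedetomidine minus vehicle) of each gene with its 95% interval in 3 edgeR fits, with all 6 libraries (circles), without vehicle replicate 2 (squares) and with GC and length correction (triangles). With all libraries the intervals of Hspb7 and Hspb2 lie below 0, with the correction all 9 intervals cross 0, and Hspb1 moves from -0.70 to -0.08 without vehicle replicate 2.

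The mitochondrial chaperonin genes had log2 fold changes of opposite sign, neither past the test. Hspd1 (ENSMUSG00000025980), the barrel subunit, measured 271, 329 and 278 CPM in the vehicle replicates and 350, 346 and 321 CPM in the dexmedetomidine replicates. Vehicle replicate 2 lay within the dexmedetomidine range and the other vehicle libraries lay below it. The log2 fold change was 0.21 (SE 0.12, 95% interval -0.06 to 0.49, edgeR adjusted p = 0.347), 0.30 without vehicle replicate 2 and 0.09 after GC and length correction, at 46.8% GC.

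Hspe1 (ENSMUSG00000073676), the lid subunit, measured 61.9, 94.6 and 52.8 CPM in the vehicle replicates and 64.7, 62.7 and 51.6 CPM in the dexmedetomidine replicates. The groups overlapped, and vehicle replicate 2 was 1.65 times the mean of the other vehicle libraries. The log2 fold change was -0.22 (SE 0.21, 95% interval -0.70 to 0.25, edgeR adjusted p = 0.574), 0.06 without vehicle replicate 2 and -0.38 after GC and length correction, at 45.5% GC. Both genes have processed pseudogenes in the mouse genome. Alignments that were not unique made up 28.0% to 31.4% of everything counted, the reads assigned to no gene included, in the vehicle libraries and 31.2% to 39.5% in the dexmedetomidine libraries, and how many of them came from these genes is not known.

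Hspd1 and Hspe1 are neighbours that start head to head, and so are Hspb2 and Cryab, and the difference within a library was described for each pair. The log2 CPM of Hspd1 minus that of Hspe1 was 2.13, 1.80 and 2.40 in the vehicle replicates and 2.44, 2.46 and 2.64 in the dexmedetomidine replicates. Every dexmedetomidine library was above every vehicle library, though vehicle replicate 3 and dexmedetomidine replicate 1 were nearly level. The means were 2.11 ± 0.30 and 2.51 ± 0.11 (SD, n = 3 each), a difference of 0.40 that was not tested or set against other gene pairs. For Hspb2 minus Cryab the log2 difference was -5.07, -5.36 and -4.67 in the vehicle replicates and -4.96, -5.28 and -5.13 in the dexmedetomidine replicates. These groups interleaved, with means of -5.03 ± 0.34 and -5.12 ± 0.16 (SD, n = 3 each), and Cryab had 25.5 to 41.0 times the CPM of Hspb2 in each library. In the GENCODE annotation, 252 exon bases of Hspb2 (30.2% of its exons) also lie in exons of Cryab, and 112 exon bases of Hspd1 (4.24%) also lie in exons of Hspe1. Whether counting used strand is not stated, so reads in those shared bases may have been set aside as ambiguous or credited to the neighbour.

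In which library each gene peaked was unevenly spread. Vehicle replicate 2 held the highest value for 7 of the 9 genes, 77.8%, where it held the highest value for 26.1% of all tested genes. The exceptions, Hspb3 and Hspd1, were highest in dexmedetomidine replicate 1. Dexmedetomidine replicate 3 held the lowest value for 5 genes, Hspb1, Hspb2, Hspb8, Cryab and Hspe1. The share of all tested genes lowest in that library was not counted, so this number has no background to be read against. Each gene was then centred on its mean log2 CPM over the 6 libraries, and likeness of 2 genes was measured as the mean absolute difference of the centred values. The closest genes among the 9 were Hspb8 and Hspe1, at 0.050, followed by Hspb2 and Hspb7 at 0.073 and Cryab and Hspe1 at 0.084. The farthest apart were Hspb1 and Hspd1, at 0.47. Hspb1 reached 1.21 above its mean in vehicle replicate 2 and was lowest, at -0.55, in dexmedetomidine replicate 3, while Hspd1 stayed between -0.21 and 0.16.

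**Figure D4:**
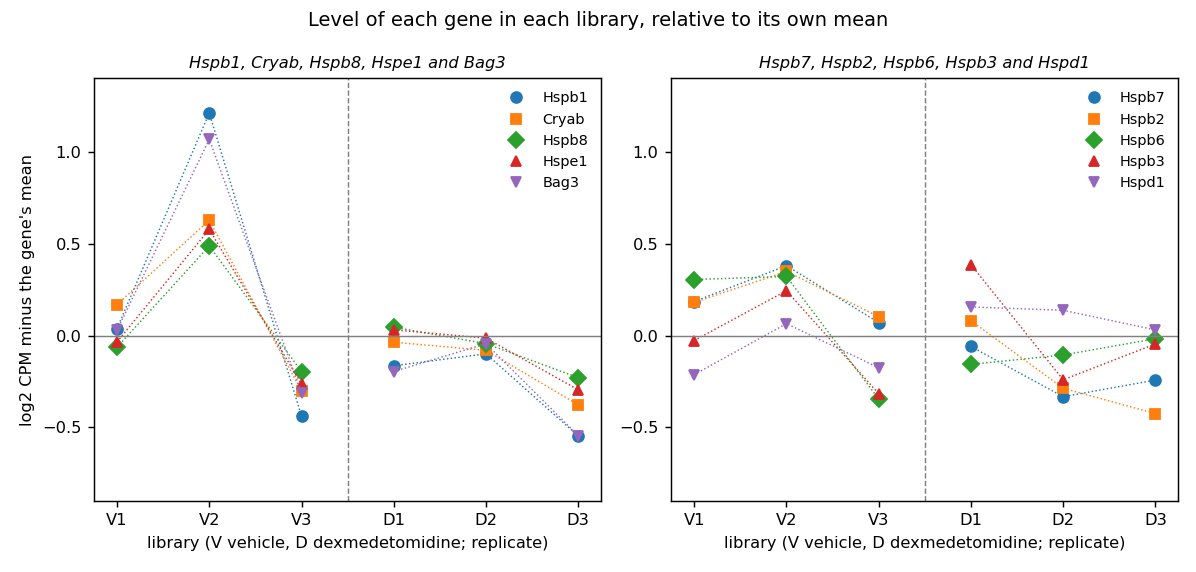
Log2 CPM of each gene minus its own mean over the 6 libraries (V vehicle, D dexmedetomidine, with the replicate number), with dotted lines that only guide the eye. On the left, Hspb1, Cryab, Hspb8, Hspe1 and the co-chaperone Bag3 all peak in V2, Hspb1 at 1.21, and on the right Hspd1 stays between -0.21 and 0.16.

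The same measure was applied between Hspb1 or Hspd1 and the 9357 tested nuclear genes with an established symbol and a mean of at least 5 CPM. The gene most like Hspb1 was Bag3, at a mean absolute difference of 0.061, with 318, 654 and 251 CPM in the vehicle replicates and 272, 303 and 214 CPM in the dexmedetomidine replicates. Bag3 is the co-chaperone that links Hspb8 to HSP70 chaperones, and like Hspb1 it was highest in vehicle replicate 2 and lowest in dexmedetomidine replicate 3. Wt1, a transcription factor of the epicardium, came next at 0.081, and Gprc5a, an orphan G protein-coupled receptor, at 0.097. For Hspd1 the nearest genes were Mmachc, which processes cobalamin, at 0.029, Hspa5, the HSP70 chaperone of the endoplasmic reticulum, at 0.033, and Ndfip2, an adaptor of ubiquitin ligases, at 0.040. Hspa5 measured 449, 525 and 443 CPM in the vehicle replicates and 559, 536 and 484 CPM in the dexmedetomidine replicates, and the groups overlapped as those of Hspd1 did.

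Partners and regulators of the small heat shock proteins were read as a list of 12 genes, all tested, with 10 lower and 2 higher and a median log2 fold change of -0.41. None passed in edgeR, and 5 had an unadjusted p under 0.05, all lower, against 9.03% of all tested genes lower at that threshold. DESeq2 called 2 and limma-voom 3, where they called 9.56% and 14.3% of all genes. Vehicle replicate 2 was the highest library for 9 of the 12, and without it the median was -0.22, with 9 lower and 3 higher. In the fit without that library 7514 of all 15168 genes were lower, with a median of 0.004. Desmin (Des), the intermediate filament protein that Cryab chaperones, measured 2503, 3043 and 1999 CPM in the vehicle replicates and 1927, 1627 and 1630 CPM in the dexmedetomidine replicates. The groups did not overlap, and vehicle replicate 2 was highest, as for Hspb7. The log2 fold change of Des was -0.54 (SE 0.16, edgeR adjusted p = 0.118, DESeq2 adjusted p = 0.0311). It was -0.38 without vehicle replicate 2 (DESeq2 adjusted p = 0.138) and -0.32 after GC and length correction (DESeq2 adjusted p = 0.339). Synpo2, an actin-bundling partner of Bag3, had a log2 fold change of -0.40 (SE 0.12, edgeR adjusted p = 0.114), with no overlap between groups. DESeq2 and limma-voom called Synpo2 (adjusted p = 0.0360 and 0.0381), DESeq2 without vehicle replicate 2 did not (adjusted p = 0.112), and after the correction it was at -0.59 (DESeq2 adjusted p = 0.0115, edgeR adjusted p = 0.287). Bag3 itself was at -0.63 (SE 0.33, edgeR adjusted p = 0.308) at -0.12 without vehicle replicate 2 and at -0.38 after the correction. Hsf1, which encodes the heat shock factor, measured 35.2, 32.0 and 29.6 CPM in the vehicle replicates and 31.0, 25.8 and 28.4 CPM in the dexmedetomidine replicates. Its log2 fold change was -0.18 (SE 0.13, edgeR adjusted p = 0.448) and -0.035 after the correction, and its highest library was vehicle replicate 1.

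The other listed chaperones induced by HSF1 were split, with 8 of 16 tested genes higher and 8 lower and a median of -0.01. None passed in edgeR, and 4 had an unadjusted p under 0.05, all higher, against 12.5% of all tested genes higher at that threshold. DESeq2 called 4 and limma-voom 4, where they called 9.56% and 14.3% of all genes. Vehicle replicate 2 was the highest library for 10 of the 16. Without vehicle replicate 2, 15 of the 16 were higher and 1 lower with a median of 0.59. In that fit 7654 of all 15168 genes were higher, with a median of 0.004. After GC and length correction 2 were higher and 14 lower with a median of -0.15. In that corrected fit 7943 of all 14329 genes were lower, with a median of -0.036. Cacybp, the calcyclin-binding protein, measured 35.4, 41.9 and 38.3 CPM in the vehicle replicates and 56.9, 73.6 and 66.3 CPM in the dexmedetomidine replicates. The groups were well separated, with a log2 fold change of 0.77 (SE 0.13, edgeR adjusted p = 0.101). DESeq2 and limma-voom called Cacybp (adjusted p = 5.01e-04 and 0.0101). Without vehicle replicate 2 it was at 0.83 (DESeq2 adjusted p = 3.29e-04, limma-voom adjusted p = 0.0760). After the correction it was at 0.14 (DESeq2 adjusted p = 0.824). Hspa4l, an HSP110 family member, was at 0.66 (SE 0.12, edgeR adjusted p = 0.101) and was called by DESeq2 and limma-voom (adjusted p = 8.18e-04 and 0.0101). It was at 0.70 without vehicle replicate 2 (DESeq2 adjusted p = 6.06e-04, limma-voom adjusted p = 0.0760) and at -0.28 after the correction (DESeq2 adjusted p = 0.634).

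The other mitochondrial chaperones and proteases gave 19 tested genes, 16 lower and 3 higher, with a median of -0.13. None passed in edgeR, and 5 had an unadjusted p under 0.05, of which 3 were lower, against 21.5% of all tested genes in either direction. DESeq2 called 1 and limma-voom 4, where they called 9.56% and 14.3% of all genes. Vehicle replicate 2 was highest for 16 of the 19, and without it 12 were lower and 7 higher with a median of -0.08. All genes in that fit had a median of 0.004, with 7514 of 15168 lower. After GC and length correction 15 were lower with a median of -0.07, where all genes in that fit had a median of -0.036. Hspa9, the matrix HSP70 that hands proteins to the chaperonin, measured 672, 700 and 636 CPM in the vehicle replicates and 655, 685 and 649 CPM in the dexmedetomidine replicates. Its groups overlapped almost entirely (log2 fold change -0.01, SE 0.11, edgeR adjusted p = 0.961). Lonp1, the matrix protease, was at -0.24 (SE 0.12, edgeR adjusted p = 0.279) with no overlap, and at -0.001 after the correction. Yme1l1, a protease of the inner membrane, was at 0.77 (SE 0.17, edgeR adjusted p = 0.101, DESeq2 adjusted p = 0.00461). It was at 0.61 without vehicle replicate 2 (DESeq2 adjusted p = 0.0152, limma-voom adjusted p = 0.0781) and at -0.18 after the correction (DESeq2 adjusted p = 0.580). Spg7, a subunit of the matrix-facing protease, was at -0.40 (SE 0.14, edgeR adjusted p = 0.144, limma-voom adjusted p = 0.0445), at -0.29 without vehicle replicate 2 (limma-voom adjusted p = 0.233) and at -0.26 after the correction.

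Markers of the cells the samples could hold were summed in each library. The summed level of 8 cardiomyocyte markers was 41493 to 48398 CPM in vehicle and 37424 to 40743 CPM in dexmedetomidine libraries, with no overlap and 6 of the 8 lower, so the labelled heart muscle was present in every library. Smooth muscle and pericyte markers summed to 977 to 1096 CPM and 1290 to 1463 CPM in the same order, with no overlap, though only 2 of 7 were higher. Fibroblast markers summed to 790 to 902 CPM and 906 to 1187 CPM, also with no overlap and with 4 of 5 higher. Endothelial markers summed to 967 to 1069 and 916 to 982 CPM, macrophage markers to 232 to 240 and 181 to 278 CPM, and neutrophil markers to 56.9 to 110 and 43.2 to 165 CPM. Skeletal muscle, which also expresses Hspb2, Hspb3, Hspb6, Hspb7 and Cryab, had marker sums of 1191 to 1742 and 989 to 1210 CPM, carried by Acta1 and Ckm, which heart also expresses, with Myh4 at 0 counts and Myh1 and Tnnt3 below the filter. Atrial markers summed to 15.3 to 31.5 and 7.52 to 59.9 CPM with Myl7 and Sln below the filter, red cell markers to 377 to 593 and 348 to 660 CPM, and adipocyte markers to at most 0.277 and 1.00 CPM with all 3 below the filter. None of the markers in these lists passed in edgeR, but no gene at all did, so this says nothing about cell makeup. The part of cell makeup in the lower Hspb7 and Hspb2 levels was not tested.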

How the data were processed

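Polyadenylated RNA of 6 cardiac apex samples, 3 per group, was sequenced after library preparation from 1 µg of RNA, per the labels. The authors deposited raw read counts per gene with a gene length. Reads were trimmed with Trim Galore and counted with HTSeq on mm9, per the submitters' processing notes. Versions, aligner, annotation and strand use were not given in the sources used here. HTSeq summary rows (2.33% to 3.63% without a feature, 1.83% to 2.37% ambiguous, 28.0% to 39.5% not unique) were left out of library sizes.

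The 9 genes and all lists were chosen with earlier results of these data known. Symbols, transcript GC content and exon overlaps came from GENCODE M21, of another build than mm9, so no gene coordinates on mm9 are given. Of 37620 identifiers 32897 matched. Promoter windows and the coordinates of the printed stretches are from RefSeq, GRCm38.p6.

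Counts were fitted with edgeR 4.0.16 (R 4.3.3): TMM factors, filterByExpr (14738 genes kept), robust quasi-likelihood test, Benjamini-Hochberg adjustment over all tested genes, threshold 0.05. The common biological coefficient of variation was 22.8%. CPM used TMM-scaled totals. Named beside the 9 genes were the 2 smallest edgeR p-values of each list, Hsf1, Bag3, Hspa9, Lonp1 and, for Hspb1 and Hspd1, the 3 genes nearest in pattern. Alternatives were DESeq2 1.42.0, limma-voom (limma 3.58.1) with quality weights, DESeq2 size factors, no filter, a mean of at least 5 CPM, no mitochondrially encoded genes, a replicate block, smooth GC and length offsets per library (mgcv 1.9.3), and leaving out each library. The fits were tested on simulated counts. All pairs of libraries differed beyond counting noise (chi-square per degree of freedom 31.0 to 480).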

Additional observations from a re-analysis of the deposited data

How the results depend on the processing

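Over 18 alternatives, 15 called none of the 9 genes; DESeq2 called 1 (Hspb7), limma-voom 2 (Hspb7 and Hspb2), and leaving out 1 library gave 0 to 1 (1, Hspb7, without vehicle replicate 3). Genes called overall numbered 0 in the main edgeR fit, 406 with no filter (292 higher, 114 lower), 1272 in DESeq2 (880 higher, 392 lower), 2107 in limma-voom (1324 higher, 783 lower) and 0 to 1251 without 1 library, the highest without vehicle replicate 3 (922 higher, 329 lower), with 7 without dexmedetomidine replicate 1 and 5 without dexmedetomidine replicate 2. Chosen after seeing the data, DESeq2 without vehicle replicate 2 called 605, limma-voom without it 7, and DESeq2 with GC and length correction 269. With a replicate block edgeR called 636 genes (569 higher, 67 lower) and none of the 9, and with the block and the GC and length correction 142. The deviations of same-numbered libraries had correlations of -0.055, 0.032 and 0.156, where pairs of unlike number ran from -0.191 to 0.155. The labels name no pairing, and with so few libraries these values cannot show whether same-numbered libraries shared one.

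Of the log2 fold changes named, 305 values kept direction and side of the threshold. Another 29 newly passed it and 24 changed sign, and the cause was not tested. With GC and length correction in edgeR, with the replicate block added, and in DESeq2, Hspb2 was at 0.032, 0.031 and 0.032, Hspa4l at -0.28, -0.22 and -0.28, and Yme1l1 at -0.184, -0.182 and -0.184, while Hspb6 with the block was at 0.013. Without vehicle replicate 2 in edgeR, DESeq2 and limma-voom, Hspb8 was at 0.056, 0.044 and 0.033, Hspe1 at 0.058, 0.047 and 0.040, and Hspa9 at 0.019, 0.0081 and 0.027. Without vehicle replicate 3, Hspb8 was at -0.31, Hspe1 at -0.39 and Hspa9 at -0.048 in edgeR. Hspa9 was at 0.0053 with a mean of at least 5 CPM and 0.0018 without dexmedetomidine replicate 3. Hspb3 was at 0.22 without vehicle replicate 2, -0.053 without vehicle replicate 3 and -0.13 without dexmedetomidine replicate 1, and Hspb9 at -1.08 without dexmedetomidine replicate 1 and 0.13 without dexmedetomidine replicate 2. Removing mitochondrially encoded genes from the totals raised all 18 mean CPM values of the 9 genes (Hspb1 from 493 to 691 in the dexmedetomidine group), and dropping the length scaling moved 6 of 9 ranks. Hspb3 was not tested at a mean of at least 5 CPM.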
